A study of Mus musculus with 12 samples.

Results

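The D-type and E-type cyclins, the kinases Cdk4 and Cdk6 and the inhibitors Cdkn1a, Cdkn1b and Cdkn2c set whether a cell leaves the G1 phase and copies its DNA. These 10 genes were taken by symbol from the annotation of an Affymetrix mouse expression array, from probe sets that carry a single symbol. All 10 were found among 18194 named genes, and all 10 lay within the 13746 genes bright enough to be tested. D-type cyclins bind Cdk4 or Cdk6 and phosphorylate the retinoblastoma protein, which frees E2F transcription factors. E-type cyclins, themselves products of E2F targets, bind Cdk2 and complete that step. Cdkn2c (p18, an Ink4 inhibitor) blocks Cdk4 and Cdk6, whereas Cdkn1a (p21) and Cdkn1b (p27) bind cyclin and kinase complexes and restrain Cdk2. In 3T3-L1 cells, the hormone mix that starts fat cell formation is known to send confluent cells back into the cycle for a few divisions, after which they leave it as they mature.

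Total RNA from mouse cell lines in culture was hybridised to 12 arrays, 3 for each of 4 groups. Brown adipocytes were taken at day 8 and brown preadipocytes at day 0, from brown adipocyte cell lines that the sample titles abbreviate as BFC. White adipocytes were taken at day 10 and white preadipocytes at day 0, from 3T3-L1, an established mouse line of white-type preadipocytes. Day 0 was 2 days after confluence in both, in medium with 10% serum (fetal bovine for brown, fetal calf for white). Brown cells were induced for 3 days with IBMX (0.5 mM), dexamethasone (1 µM), insulin (20 nM), indomethacin (125 µM) and the thyroid hormone T3 (1 nM), and were then kept in insulin and T3 until harvest. White cells had the same amounts of IBMX and dexamethasone for 3 days, with insulin at 1 µg/mL. Insulin alone was kept for a further 2 days, and plain growth medium followed. The line, the induction mix, the medium after it and the day of harvest all changed at once, and the serum was named differently. Brown and white here stand for those combinations. The labels do not say that the 3 arrays of a group came from separate cultures, so p-values measure the spread between arrays, which may be technical.

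The cells were checked against marker genes. The summed signal of 7 adipocyte markers was 89862 to 93249 in brown adipocytes, 48129 to 56879 in brown preadipocytes, 109565 to 123312 in white adipocytes and 8557 to 9384 in white preadipocytes. Brown preadipocytes therefore already carried adipocyte transcripts at day 0, with Adipoq at 18695 ± 2319 and Pparg at 3188 ± 167 (SD, n = 3), against 31.9 ± 16.4 and 649.9 ± 27.6 in white preadipocytes. The summed signal of 4 preadipocyte markers was 596 to 676 in brown adipocytes, 12213 to 12872 in brown preadipocytes, 7866 to 8958 in white adipocytes and 17550.1 to 19465 in white preadipocytes. In the white line Dlk1 and Pdgfrb were lower in adipocytes. Pdgfra was not, at 2970 ± 269 in white adipocytes and 2595 ± 138 in white preadipocytes, against 5514 ± 349 in brown preadipocytes. Cd34 was dim in both white groups, at 20.9 ± 3.31 in adipocytes and 15.9 ± 10.2 in preadipocytes. The summed signal of 5 brown fat markers was 25126 to 27745 in brown adipocytes, 187 to 214 in brown preadipocytes, 5852 to 7182 in white adipocytes and 42.4 to 62.4 in white preadipocytes. Its members did not agree between the adipocytes. Cox8b was 3685 ± 594 in brown and 5065 ± 649 in white adipocytes. The others were higher in brown than in white adipocytes: Ucp1 (382 against 6.14), Cidea (6754 against 63.3), Ppara (1117 against 42.1) and Cox7a1 (14770 against 1506). Summed signals of 5 macrophage, 4 endothelial and 4 muscle markers reached at most 304, 128 and 202 on any array. As a sign of RNA quality, the signal at the 3' end of beta-actin over that at its 5' end was 2.42 ± 0.0478 in brown adipocytes, 1.49 ± 0.0626 in brown preadipocytes, 2.25 ± 0.151 in white adipocytes and 1.40 ± 0.0554 in white preadipocytes. That ratio moved with differentiation in both lines, and its part in the changes below was not tested. The like ratio of Gapdh was 0.814 ± 0.0189 in brown adipocytes, 0.775 ± 0.0296 in brown preadipocytes, 0.828 ± 0.00689 in white adipocytes and 0.861 ± 0.0342 in white preadipocytes. Arrays correlated at 0.978 to 0.982 within groups and 0.885 to 0.935 between them. In a bulk culture, fewer cells of a kind and less RNA per cell cannot be told apart.

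Cyclin D1 (Ccnd1) and Cdk4 fell in both lines as the cells became adipocytes, and the inhibitor Cdkn2c rose in both. Cyclin E2 (Ccne2), Cdk6 and Cdkn1b rose with differentiation in the brown line and fell in the white line. Cyclin D2 (Ccnd2) fell in the brown line and did not pass the test in the white line. Cyclin E1 (Ccne1) fell and Cdkn1a rose in the white line, neither passed in the brown line, and cyclin D3 (Ccnd3) passed in neither line. The change differed between the lines for 9 of the 10 genes by the interaction term of the fit. Values below are probe set signals as deposited, and differences are of log2(signal + 16) between group means in one limma fit over all 12 arrays, with Benjamini-Hochberg adjustment over the 13746 genes. A difference of 1 on that scale is a 2-fold change for a gene far above 16, and it understates the change of a dim gene.

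**Figure D1:**
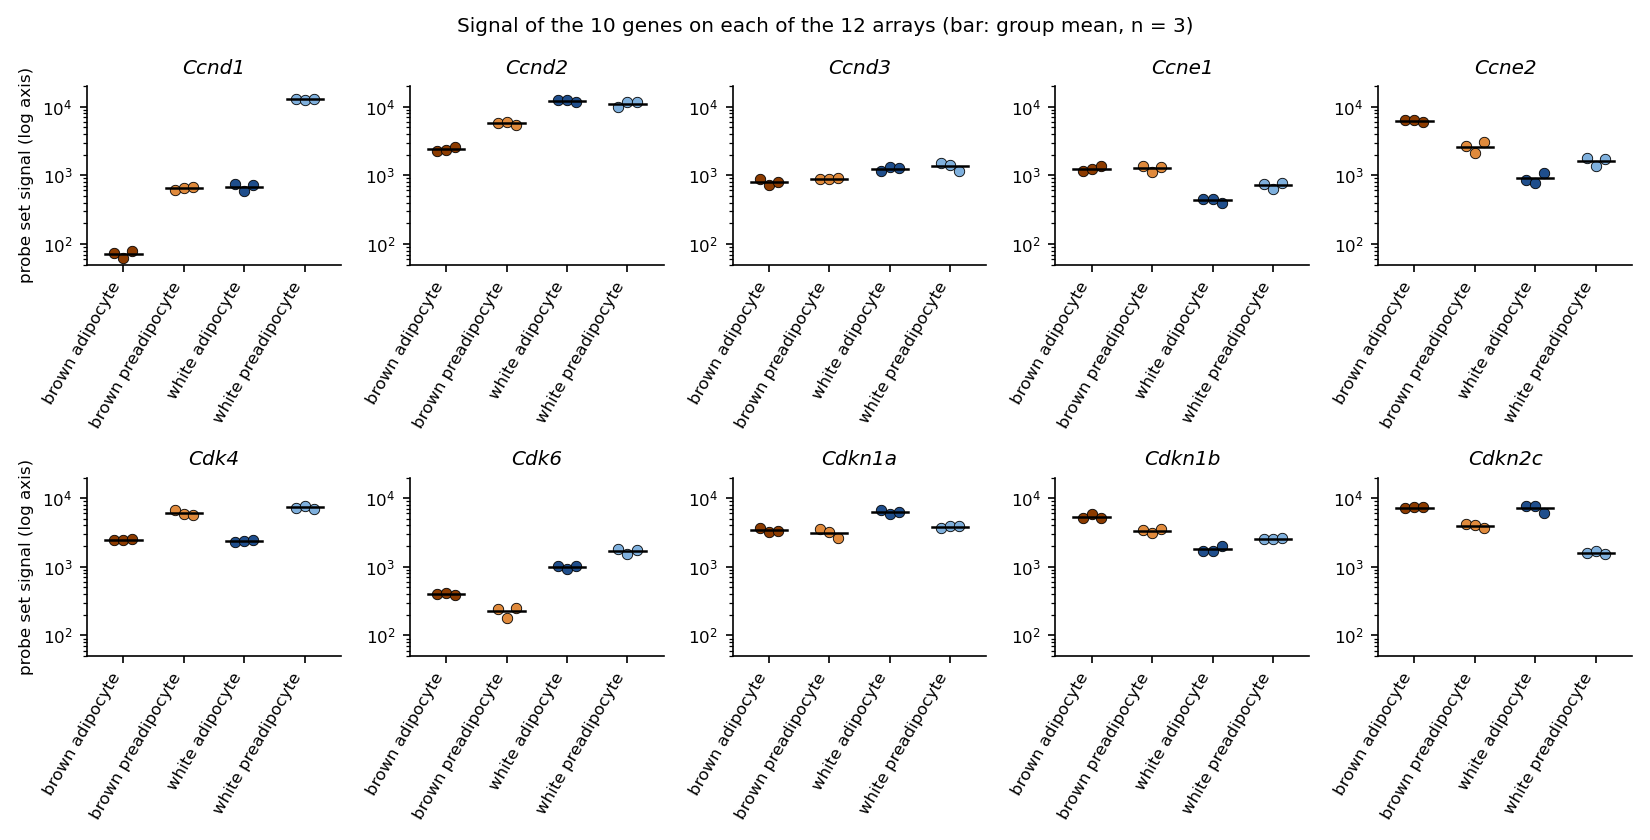
Probe set signal (log axis) of each of the 10 genes on the 12 arrays, with a point per array and a bar at the group mean (n = 3). Ccnd1 spans the widest range, with 61.9 to 78.7 in brown adipocytes and 12694 to 13057 in white preadipocytes, whereas the Ccnd3 arrays lie between 716 and 1490 in all groups.

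With brown differentiation, 7 of the 10 genes passed an adjusted p of 0.05, against 58.6% of all genes tested. Of these 7 genes, 4 were higher and 3 lower, against 27.2% and 31.5% of all genes. With white differentiation, 8 of the 10 passed, against 61.2% of all genes. Of these, 2 were higher and 6 lower, against 30.0% and 31.2% of all genes. Falls in white were more frequent among the 10 than over all genes, and no test was made of this count. Changes of at least 2-fold were made by 4 members in brown and 3 in white, against 22.2% and 25.7% of all genes. Adipocyte and preadipocyte arrays did not overlap for 7 members in brown and 8 in white, against 65.2% and 66.0% of all genes. The median difference over the members was 0.06 in brown and −0.59 in white, beside medians of −0.03 and 0.02 over all genes.

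The difference in change between the lines was called for 9 members, against 50.9% of all genes, with 6 higher (23.6% of all genes) and 3 lower (27.4%) in brown. It reached 2-fold for 6 members, against 24.3% of all genes. Calls in opposite directions in the lines were made for 3 members, Ccne2, Cdk6 and Cdkn1b, against 8.56% of all genes. Between brown and white adipocytes, 8 members were called (59.5% of all genes), 3 higher (30.0%) and 5 lower (29.5%) in brown. Of them 6 reached 2-fold (23.0% of all genes), and the arrays of 9 members did not overlap (65.5%). Between brown and white preadipocytes all 10 members were called (54.9%), 4 higher (31.1%) and 6 lower (23.8%) in brown. Of those 3 reached 2-fold (17.7% of all genes), and the arrays of all 10 did not overlap (61.8%). The comparisons share arrays, so their calls are not independent of each other. Scaling matters for such splits. Of all calls, 46.3% were higher with brown differentiation, 49.1% with white differentiation and 50.4% in brown against white adipocytes, but 31.9%, 34.2% and 60.6% when arrays were scaled to the hybridization controls. In brown against white preadipocytes 56.7% of calls were higher, but 35.4% when array medians were made equal. Scaling to the hybridization controls moved the median of all genes to −0.22 in both differentiations, to 0.13 between the adipocytes and to 0.15 between the preadipocytes. Equal medians moved it to −0.12 and −0.18 in those last comparisons.

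**Figure D2:**
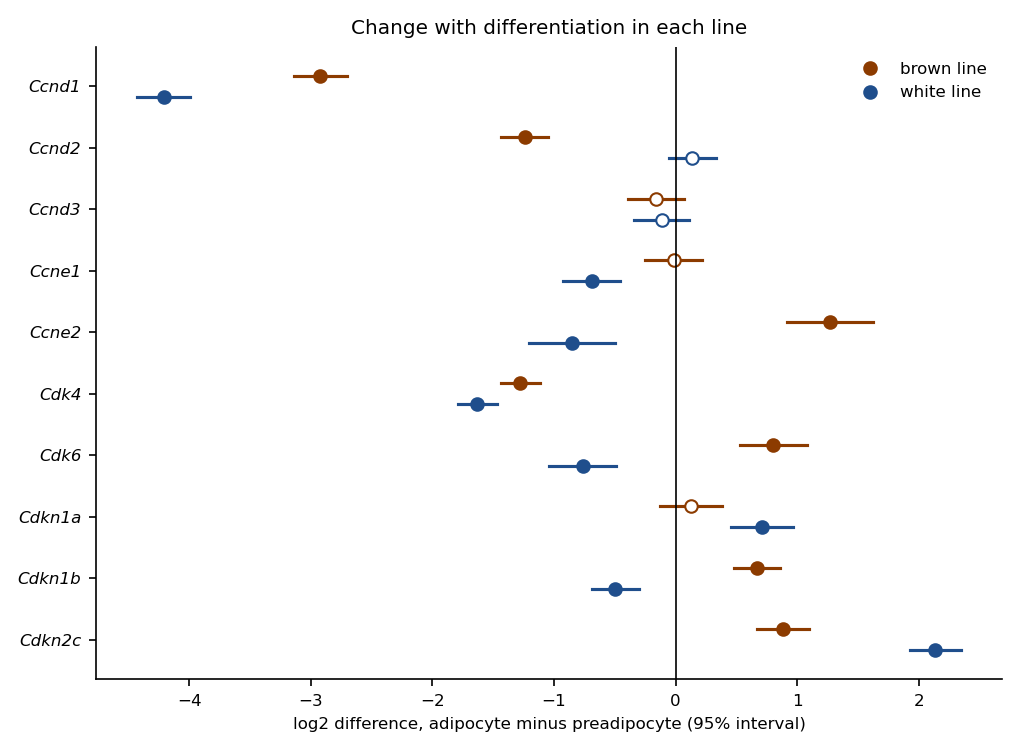
Log2 difference, adipocyte minus preadipocyte, of each gene in the brown and white lines, with 95% intervals from the limma fit; filled points passed an adjusted p of 0.05. Ccne2, Cdk6 and Cdkn1b lie right of 0 in brown and left of 0 in white.

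Ccnd1 encodes cyclin D1, the D-type cyclin most closely tied to mitogen signals. Its signal was 74.2, 61.9 and 78.7 in brown adipocytes, against 602, 662 and 675 in brown preadipocytes. In the white line it was 735, 599.0 and 718 in adipocytes, against 12914, 12694 and 13057 in preadipocytes. Every adipocyte array was below every preadipocyte array of its line, and white adipocytes overlapped brown preadipocytes. On the probe set used, the mean level was 179.96 times as high in white preadipocytes, the top group, as in brown adipocytes, the lowest. The difference was −2.92 with brown differentiation (SE 0.0975, adjusted p = 4.14e-09) and −4.21 with white differentiation (SE 0.0975, adjusted p = 2.28e-10). The fall was smaller in brown, by 1.29 on the log2 scale (SE 0.138, adjusted p = 2.86e-05). With a mean of only 71.6 in brown adipocytes, the brown fall is understated on that scale. The ratios of mean signals, preadipocytes over adipocytes, were 9.02 in brown and 18.8 in white. The brown line was lower at both stages, with differences of −3.00 in adipocytes (SE 0.0975, adjusted p = 3.26e-09) and −4.29 in preadipocytes (SE 0.0975, adjusted p = 5.81e-10). All 3 probe sets of Ccnd1 gave the same directions, but 1448698_at put the brown change at −1.82 and the difference in change at 2.30. The probe set 1417419_at put them at −3.63 and 0.88, with means of 7.19 in brown adipocytes and 271 in brown preadipocytes. Its white means were 228 in adipocytes and 5557 in preadipocytes, so by ratios of mean signals its fall was larger in brown. Its brown adipocyte mean lay below the filter level of 32.9 to 41.2, so the size of that brown fall is uncertain.

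Ccnd2 encodes cyclin D2, which shares the Cdk4 and Cdk6 partners of cyclin D1. Brown adipocytes had 2281, 2341 and 2601, against 5716, 6020.0 and 5379 in brown preadipocytes. White adipocytes had 12426.5, 12463 and 11691, against 9871, 11854 and 11599 in white preadipocytes. Brown adipocytes were lowest and brown preadipocytes next, and the white groups overlapped at the top. Ccnd2 fell with brown differentiation, by 1.24 on the log2 scale (SE 0.0869, adjusted p = 7.6e-07). In the white line the difference was 0.14 (SE 0.0869, adjusted p = 0.198), with a 95% interval of −0.06 to 0.33. The change differed between the lines by −1.38 (SE 0.123, adjusted p = 7.76e-06). Ccnd2 was lower in the brown line, with differences of −2.33 in adipocytes (SE 0.0869, adjusted p = 7.83e-09) and −0.96 in preadipocytes (SE 0.0869, adjusted p = 7.21e-06). The brown fall was found on all 7 probe sets, while 1 of them, 1416124_at, also fell with white differentiation, with a difference of −0.63 (adjusted p = 0.000309). That probe set put the brown change at −2.17.

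Ccnd3 encodes cyclin D3, the D-type cyclin associated with differentiated cells. Brown adipocytes had 878, 716 and 794, against 876, 884 and 906 in brown preadipocytes. White adipocytes had 1169, 1301 and 1261, against 1489.6, 1409 and 1164 in white preadipocytes. The stages overlapped in both lines, and every white array lay above every brown array. The difference was −0.16 with brown differentiation (SE 0.102, adjusted p = 0.207; 95% interval −0.39 to 0.07) and −0.12 with white differentiation (SE 0.102, adjusted p = 0.362; 95% interval −0.34 to 0.11). After scaling to the hybridization controls both passed, at −0.37 in brown (adjusted p = 0.0217) and −0.39 in white (adjusted p = 0.016). The changes differed by −0.05 (SE 0.145, adjusted p = 0.823). Ccnd3 was lower in brown, with differences of −0.64 in adipocytes (SE 0.102, adjusted p = 0.00033) and −0.59 in preadipocytes (SE 0.102, adjusted p = 0.000675). The other 2 probe sets were dim, and one of them, 1438805_at, was higher in brown instead, by 1.64 in adipocytes and 0.83 in preadipocytes. The mean of all 3 probe sets gave 0.31 in adipocytes (adjusted p = 0.0843) and −0.03 in preadipocytes (adjusted p = 0.868).

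Ccne1 encodes cyclin E1, an activator of Cdk2 at the start of S phase. Brown adipocytes had 1143, 1234 and 1380.3, against 1349, 1131 and 1321 in brown preadipocytes. White adipocytes had 457, 449.9 and 401, against 745, 635 and 762 in white preadipocytes. The brown stages overlapped, and the white adipocyte arrays were the lowest of all. Ccne1 fell with white differentiation, by 0.69 on the log2 scale (SE 0.106, adjusted p = 0.000217). In the brown line the difference was −0.02 (SE 0.106, adjusted p = 0.909), with a 95% interval of −0.25 to 0.22. The change differed between the lines by 0.67 (SE 0.15, adjusted p = 0.00368). Ccne1 was higher in brown by 1.49 in adipocytes (SE 0.106, adjusted p = 8.05e-07) and 0.81 in preadipocytes (SE 0.106, adjusted p = 9.39e-05). The probe set used ends in _x_at, a design that can also bind related transcripts. The other, 1416492_at, gave 0.21 in brown (adjusted p = 0.13) and 0.53 between the preadipocytes (adjusted p = 0.00221).

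Ccne2 encodes cyclin E2, the other Cdk2 partner. Brown adipocytes had 6388, 6341 and 5920.1, against 2636, 2104 and 3067 in brown preadipocytes. White adipocytes had 844, 784 and 1064, against 1794, 1379 and 1715 in white preadipocytes. No array of any group overlapped another group, and brown adipocytes stood highest and white adipocytes lowest. Ccne2 rose with brown differentiation by 1.27 (SE 0.158, adjusted p = 5.8e-05) and changed by −0.85 with white differentiation (SE 0.158, adjusted p = 0.000826). The changes differed by 2.12 (SE 0.224, adjusted p = 2.64e-05). It was higher in brown by 2.78 in adipocytes (SE 0.158, adjusted p = 1.61e-07), a ratio of mean signals of 6.93. In preadipocytes it was higher in brown by 0.66 (SE 0.158, adjusted p = 0.00495), but by 0.39 with an adjusted p of 0.0952 when array medians were made equal. A single probe set measured Ccne2.

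Cdk4 encodes the main kinase partner of the D-type cyclins. Brown adipocytes had 2485, 2477 and 2526, against 6654, 5867 and 5714 in brown preadipocytes. White adipocytes had 2293, 2357 and 2432, against 7224, 7791 and 7016 in white preadipocytes. All adipocyte arrays of both lines lay well below all preadipocyte arrays. Cdk4 fell by 1.28 on the log2 scale with brown differentiation (SE 0.0714, adjusted p = 1.43e-07) and by 1.63 with white differentiation (SE 0.0714, adjusted p = 1.64e-08). The falls differed by 0.35 (SE 0.101, adjusted p = 0.0139), or by 0.21 with an adjusted p of 0.117 after quantile normalization. Between the adipocytes the difference was 0.08 (SE 0.0714, adjusted p = 0.365), with a 95% interval of −0.08 to 0.24, although the arrays did not overlap. Cdk4 was called higher in brown adipocytes on probe set 1422439_a_at (0.21, adjusted p = 0.0167) and after scaling to the hybridization controls (0.23, adjusted p = 0.0499). On 1422440_at the difference was 0.24 and did not pass (adjusted p = 0.0979). In preadipocytes Cdk4 was lower in brown with a difference of −0.27 (SE 0.0714, adjusted p = 0.00799), a call lost after quantile normalization (−0.15, adjusted p = 0.104) and after scaling to the hybridization controls (−0.19, adjusted p = 0.111), and with _s_at and _x_at probe sets left out (adjusted p = 0.0628). All 3 probe sets fell in both lines.

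The regions just upstream of the kinase genes are shown because the kinases moved apart in the brown line, where Cdk4 fell and Cdk6 rose. RefSeq windows on GRCm38.p6 run from 250 bases before to 50 bases after an annotated start, and 7 of the 10 genes had at least 1 window. Capitals in the windows below mark CACGTG, an E-box bound by factors such as Myc, and TATAAA, both searched on both strands. The Cdk4 window is chr10:127063285-127063584, plus strand, and holds CACGTG at positions −172, −118, −98 and −11 from the start. Of 32851 mouse windows of 300 bases, 7.15% hold CACGTG at least once and 8 windows, or 0.0244%, hold it 4 or more times. The Cdk6 window is chr5:3343643-3343942, plus strand, with CACGTG at −220 and TATAAA at −103, and 13.6% of all windows hold TATAAA.
Cdk4: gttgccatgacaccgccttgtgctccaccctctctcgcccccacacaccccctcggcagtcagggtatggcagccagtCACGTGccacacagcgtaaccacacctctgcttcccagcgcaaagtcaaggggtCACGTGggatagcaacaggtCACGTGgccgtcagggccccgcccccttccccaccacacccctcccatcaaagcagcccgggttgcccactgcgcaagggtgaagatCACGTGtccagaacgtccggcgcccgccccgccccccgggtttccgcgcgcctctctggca
Cdk6: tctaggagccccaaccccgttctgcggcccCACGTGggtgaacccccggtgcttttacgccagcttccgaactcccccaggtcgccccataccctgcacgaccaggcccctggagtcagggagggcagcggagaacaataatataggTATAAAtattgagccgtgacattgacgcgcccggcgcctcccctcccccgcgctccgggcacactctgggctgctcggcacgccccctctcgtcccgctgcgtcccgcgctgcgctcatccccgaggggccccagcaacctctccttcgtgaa
Such matches describe the letters and do not show that a factor binds there. None of the E2F sequences TTTCCCGC, TTTCGCGC, TTTGCCGC or TTTGGCGC, searched on both strands, was in the 10 windows of the 7 genes, and 2.26% of all windows hold one. The FoxO sequence GTAAACA was in 1 of them, a Ccnd3 window, and is in 3.65% of all windows.

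Myc, whose protein binds the E-box, had signals of 2572 ± 229.6 in brown adipocytes and 2472 ± 98.4 in brown preadipocytes, against 629 ± 10.4 in white adipocytes and 1103 ± 62.6 in white preadipocytes (SD, n = 3). Its difference was 0.05 with brown differentiation (adjusted p = 0.576) and −0.79 with white differentiation (adjusted p = 6.65e-06).

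Cdk6 encodes the second kinase of the D-type cyclins. Brown adipocytes had 399.6, 411 and 391, against 243, 177 and 254 in brown preadipocytes. White adipocytes had 1028, 928 and 1032, against 1809, 1525 and 1775 in white preadipocytes. No groups overlapped, with white preadipocytes highest and brown preadipocytes lowest. Cdk6 rose by 0.80 with brown differentiation (SE 0.123, adjusted p = 0.000245) and changed by −0.76 with white differentiation (SE 0.123, adjusted p = 0.000307). The changes differed by 1.57 (SE 0.174, adjusted p = 3.69e-05). Cdk6 was lower in brown, with differences of −1.28 in adipocytes (SE 0.123, adjusted p = 7.71e-06) and −2.85 in preadipocytes (SE 0.123, adjusted p = 3.83e-08). A second bright probe set gave the same calls, whereas a dim one, 1460291_at, gave −0.20 in brown (adjusted p = 0.646) and −0.65 in white (adjusted p = 0.124).

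Cdkn1a encodes p21, an inhibitor of cyclin and Cdk2 complexes and a target of p53. Brown adipocytes had 3675, 3183 and 3334, against 3599.65, 3187 and 2603 in brown preadipocytes. White adipocytes had 6667, 5833 and 6301, against 3663, 3911 and 3873 in white preadipocytes. White adipocytes stood above all other arrays, and the brown stages overlapped. Cdkn1a rose with white differentiation by 0.71 (SE 0.113, adjusted p = 0.000274), whereas its second probe set, 1421679_a_at, gave 0.22 (adjusted p = 0.226). In the brown line the difference was 0.13 (SE 0.113, adjusted p = 0.36), with a 95% interval of −0.12 to 0.38. The changes differed by −0.58 (SE 0.16, adjusted p = 0.0113), or −0.34 on the second probe set (adjusted p = 0.205). Cdkn1a was lower in brown adipocytes than in white ones, with a difference of −0.88 (SE 0.113, adjusted p = 6.54e-05). Between the preadipocytes it was lower in brown with a difference of −0.30 (SE 0.113, adjusted p = 0.0472), a call that was lost for 11 of the 12 arrays left out in turn, with adjusted p-values of 0.0113 to 0.153. Without brown preadipocyte replicate 3, its lowest array, the difference was −0.17. Leaving out an adipocyte array kept the difference at −0.30 and moved only its adjusted p. The second probe set put the preadipocyte difference at −0.82 (adjusted p = 0.00092), and the mean of probe sets put it at −0.56 (adjusted p = 0.00232).

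The window at the first annotated start of Cdkn1a, chr17:29090729-29091028 on the plus strand of GRCm38.p6, is shown because p53 targets are described below. Capitals mark matches to the p53 half-site consensus RRRCWWGYYY, at positions −73 and −51 from the start. In it R is A or G, W is A or T and Y is C or T.
Cdkn1a: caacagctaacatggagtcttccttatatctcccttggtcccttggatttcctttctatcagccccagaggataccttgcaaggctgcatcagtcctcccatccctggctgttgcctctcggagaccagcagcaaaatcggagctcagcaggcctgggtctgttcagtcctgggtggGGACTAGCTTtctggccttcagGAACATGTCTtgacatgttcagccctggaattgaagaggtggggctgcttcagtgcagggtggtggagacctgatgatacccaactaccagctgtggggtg
Of all 32851 windows, 8.36% hold such a half-site, and the window at the second annotated start of Cdkn1a held none.

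Cdkn1b encodes p27, an inhibitor of Cdk2 that accumulates in many resting cells. Brown adipocytes had 5181, 5786 and 5121, against 3439, 3085 and 3549.6 in brown preadipocytes. White adipocytes had 1725, 1712 and 1996, against 2529, 2498 and 2626 in white preadipocytes. No groups overlapped, and the order was that of Ccne2, with brown adipocytes highest and white adipocytes lowest. Cdkn1b rose by 0.67 with brown differentiation (SE 0.0849, adjusted p = 6.17e-05) and changed by −0.49 with white differentiation (SE 0.0849, adjusted p = 0.000479). The changes differed by 1.17 (SE 0.12, adjusted p = 2.17e-05). Cdkn1b was higher in brown by 1.56 in adipocytes (SE 0.0849, adjusted p = 1.16e-07) and 0.39 in preadipocytes (SE 0.0849, adjusted p = 0.00278), the last being 0.11 with an adjusted p of 0.445 under equal medians. A dim probe set, 1419497_at, gave 0.15 in brown (adjusted p = 0.42) and −0.24 in white (adjusted p = 0.209).

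Cdkn2c encodes p18, which binds Cdk4 and Cdk6 and keeps D-type cyclins off them. Brown adipocytes had 7186, 7359.7 and 7364, against 4141, 4095 and 3635 in brown preadipocytes. White adipocytes had 7690.2, 7583 and 6143, against 1567, 1707 and 1545 in white preadipocytes. The adipocyte groups overlapped at the top, above brown preadipocytes and then white preadipocytes. Cdkn2c rose by 0.88 with brown differentiation (SE 0.0944, adjusted p = 1.79e-05) and by 2.13 with white differentiation (SE 0.0944, adjusted p = 1.75e-08), ratios of mean signals of 1.85 and 4.44. The rise was smaller in brown, with a difference in change of −1.25 (SE 0.133, adjusted p = 2.79e-05). Between the adipocytes the difference was 0.04 (SE 0.0944, adjusted p = 0.742), with a 95% interval of −0.17 to 0.25. In preadipocytes Cdkn2c was higher in brown by 1.29 (SE 0.0944, adjusted p = 1.53e-06). It was measured by a single probe set.

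The window at the second annotated start of Cdkn2c, chr4:109665323-109665622 on the minus strand of GRCm38.p6, held 1 CACGTG (in capitals), 35 bases after the start. It is shown beside the Cdk4 window because the levels of this inhibitor and its target Cdk4 moved in opposite directions in both lines. Its other target, Cdk6, rose in brown, as Cdkn2c did, and fell in white.
Cdkn2c: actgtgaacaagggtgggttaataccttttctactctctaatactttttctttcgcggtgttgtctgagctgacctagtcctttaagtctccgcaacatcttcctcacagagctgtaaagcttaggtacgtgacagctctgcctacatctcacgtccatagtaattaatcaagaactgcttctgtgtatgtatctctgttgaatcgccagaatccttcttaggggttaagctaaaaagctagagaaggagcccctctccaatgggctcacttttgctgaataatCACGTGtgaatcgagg
The window at its first annotated start held none of the motifs searched.

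**Figure D3:**
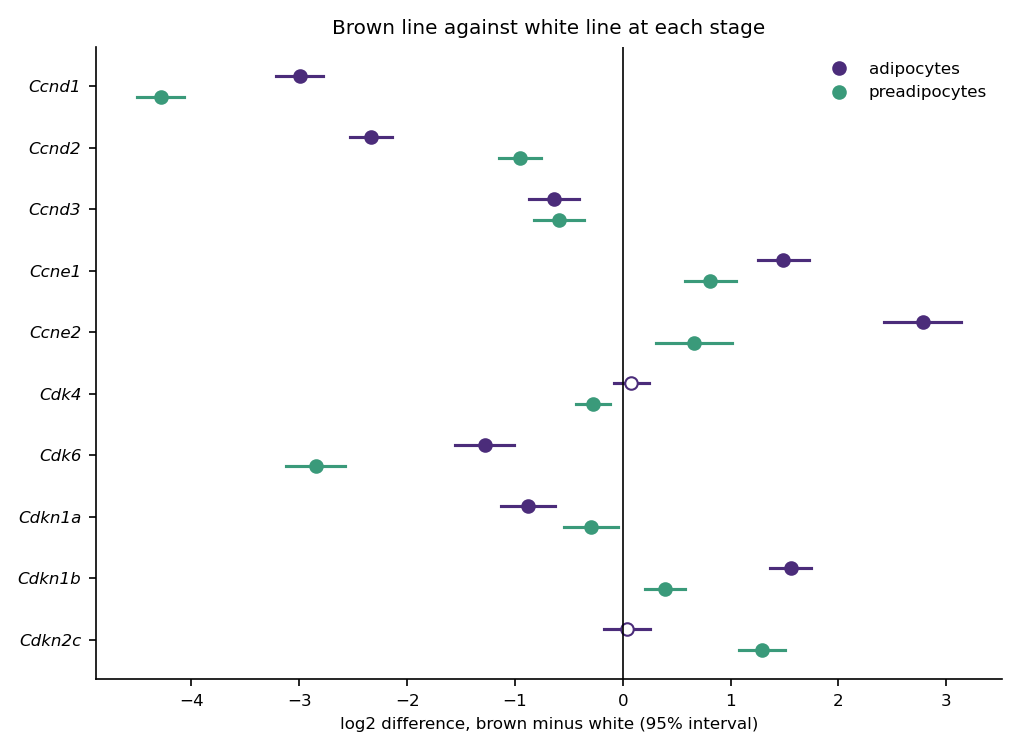
Log2 difference, brown minus white, of each gene in adipocytes and in preadipocytes, with 95% intervals from the limma fit; filled points passed an adjusted p of 0.05. The D-type cyclins, Cdk6 and Cdkn1a lie left of 0 at both stages and the E-type cyclins and Cdkn1b right of 0, while Cdk4 and Cdkn2c cross 0 in adipocytes.

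Among the cyclins, the levels divided by type between the lines. All 3 D-type cyclins were lower in brown than in white cells at both stages, with Ccnd1 and Ccnd2 furthest apart. Both E-type cyclins were higher in brown at both stages. The inhibitors and kinases did not divide by role. Cdkn1b was higher and Cdkn1a lower in brown at both stages, while Cdkn2c was higher in brown preadipocytes and not called between the adipocytes. Cdk6 was lower in brown at both stages, and Cdk4 was called lower in brown preadipocytes only. The limits given above for preadipocytes and for the dim Ccnd3 probe set apply here. The pattern of each gene over the 12 arrays was closest among the members for Ccne1 and Cdkn1b, whose centred log2 levels differed by a root mean square of 0.297.

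**Figure D4:**
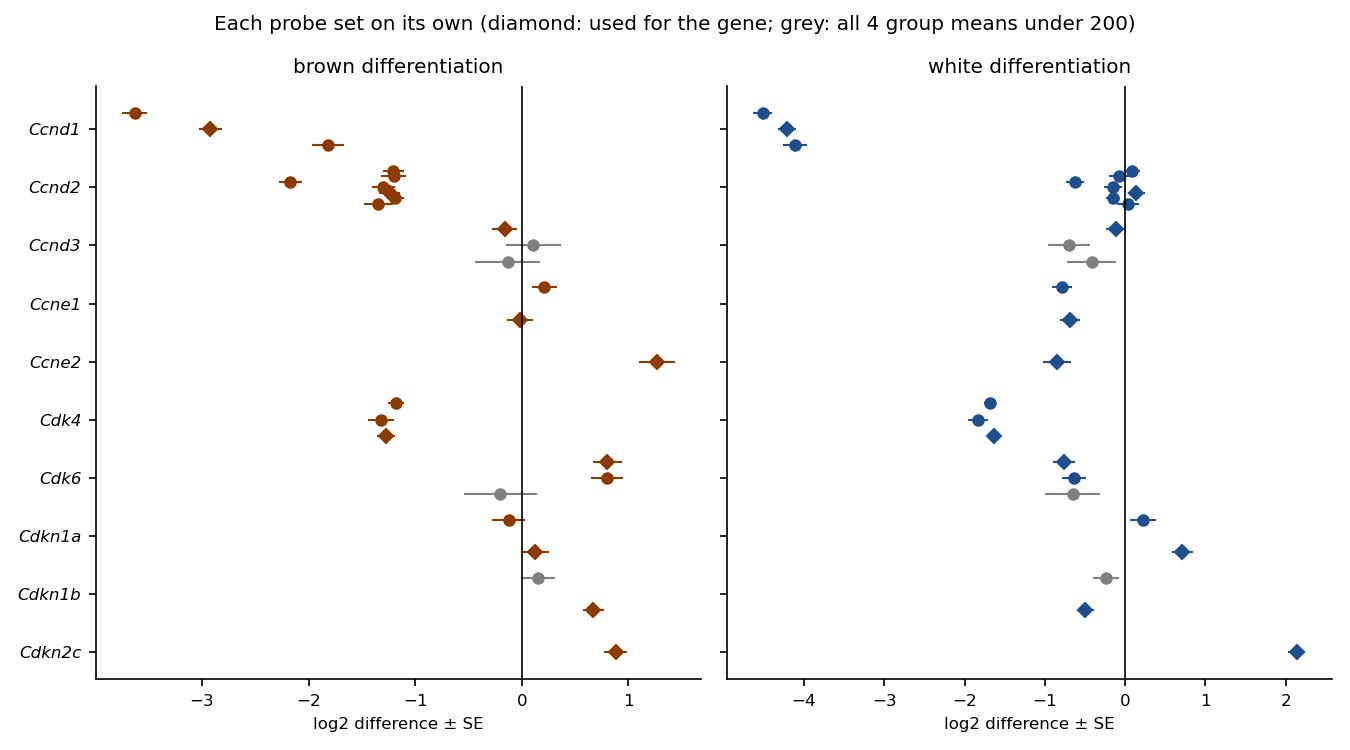
Log2 difference, adipocyte minus preadipocyte, with its SE, for each of the 27 probe sets of the 10 genes in the brown and white lines; diamonds mark the probe set used and grey marks those with all 4 group means under 200. The probe sets of Ccnd1 and Cdk4 lie left of 0 in both panels, and the grey ones of Cdk6 and Cdkn1b lie nearer 0 than the diamonds in brown.

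The partners of these genes were read from lists. Beside the counts of these 6 lists, 27.2% of all genes tested were called higher and 31.5% lower with brown differentiation. With white differentiation those shares were 30.0% and 31.2%. No list was tested against them. Among 13 Rb proteins and E2F factors, 6 were higher, 2 lower and 5 not called with brown differentiation (median 0.50), against 3 higher, 8 lower and 2 not called with white differentiation (median −0.59). The retinoblastoma gene Rb1 rose in both, by 1.72 in brown (SE 0.0856, adjusted p = 6.38e-08) and 2.55 in white (SE 0.0856, adjusted p = 2.63e-09). Its relative Rbl1 (p107) rose by 0.89 in brown (adjusted p = 7.44e-07) and had −0.90 in white (adjusted p = 4.89e-07). The repressor gene E2f7 had −0.19 in brown (adjusted p = 0.462) and changed by −3.82 in white (adjusted p = 7.35e-08). Its signal was 51.6 ± 25.3 in white adipocytes, near the filter level of the arrays, against 898 in white preadipocytes. The E2f7 relative E2f8 had −0.23 in brown (adjusted p = 0.189) and was called lower in white (adjusted p = 3.55e-09). E2f8 was at 18.6 ± 6.8 in white adipocytes, below the filter level of the arrays, against 517 in white preadipocytes.

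Of 18 other G1 genes, 5 were higher, 11 lower and 2 not called in brown (median −0.35), against 4 higher, 11 lower and 3 not called in white (median −0.55). Skp2, whose protein directs the breakdown of p27, had −1.32 in brown (SE 0.116, adjusted p = 4.27e-06) and −3.09 in white (SE 0.116, adjusted p = 5.59e-09). Cdkn2b (p15), the Ink4 relative of Cdkn2c, changed the other way from it in both lines, with −2.76 in brown (SE 0.0716, adjusted p = 9.34e-10) and −0.76 in white (adjusted p = 5.48e-06). Cables1 rose by 2.48 in brown (adjusted p = 1.61e-05), and was called higher in white (adjusted p = 1.54e-05), where its preadipocyte signal of 26.0 lay below the filter level of 32.9 to 41.2 and the size of the rise was not measurable. Cyclin A2 (Ccna2), the partner of Cdk2 in S phase, had −0.94 in brown (SE 0.0719, adjusted p = 1.46e-06) and −4.09 in white (SE 0.0719, adjusted p = 4.93e-11).

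Of 18 p53 targets besides Cdkn1a, 16 were tested, and 2 were higher, 9 lower and 5 not called in brown (median −0.51), against 5 higher, 6 lower and 5 not called in white (median 0.05). Gadd45a rose by 0.83 with brown differentiation (adjusted p = 0.000307), where Cdkn1a did not pass, and by 3.41 with white differentiation (SE 0.131, adjusted p = 6.34e-09). Plk2 had −3.85 in brown (SE 0.171, adjusted p = 2.91e-08) and −2.12 in white (SE 0.171, adjusted p = 1.7e-06). Zmat3 also fell in both, with −1.77 in brown (adjusted p = 1.6e-08) and −1.49 in white (adjusted p = 3.41e-08).

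Genes of the phases after G1 changed by different amounts in the lines. Of 19 tested S phase genes that E2F is known to drive, 3 were higher, 3 lower and 13 not called in brown (median 0.04), against 18 lower and 1 not called in white (median −3.11). All 19 were called with a higher change in brown by the interaction term, against 23.6% of all genes. Their median was 3.09, beside −0.05 over all genes. The replication helicase subunit Mcm5 had 8533 ± 211 in brown adipocytes and 8998 ± 473 in brown preadipocytes, against 202 ± 5.82 in white adipocytes and 6691 ± 318 in white preadipocytes (SD, n = 3). Uhrf1, a cofactor of maintenance DNA methylation, had −4.81 in white (SE 0.0981, adjusted p = 1.02e-10). Ung, a uracil glycosylase, rose by 2.00 in brown (SE 0.103, adjusted p = 8.3e-08) and had 0.10 in white (adjusted p = 0.455).

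Of 13 mitosis genes, 12 were tested, and 11 were lower and 1 not called in brown (median −0.97), against 12 lower in white (median −3.58). The spindle checkpoint kinase gene Bub1 had −1.32 in brown (SE 0.0622, adjusted p = 4.45e-08) and −4.29 in white (SE 0.0622, adjusted p = 1.99e-11). All 12 were called with a higher change in brown by the interaction term (median 2.57), against 23.6% of all genes. Foxm1 was the one not called in brown (−0.49, adjusted p = 0.0567). The share of cells in cycle was not measured in these cultures.

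Of 12 growth signal genes upstream of cyclin D, 1 was higher, 10 lower and 1 not called in brown (median −0.81), against 2 higher, 9 lower and 1 not called in white (median −0.78). Ccn1, a matrix gene driven by Yap, had −4.70 in brown (SE 0.187, adjusted p = 1.35e-08) and −3.25 in white (SE 0.187, adjusted p = 1.25e-07). Ets1 also fell in both, with −1.76 in brown (adjusted p = 1.76e-07) and −1.50 in white (adjusted p = 4.12e-07). The AP-1 gene Jun rose in brown (1.52, SE 0.0707, adjusted p = 3.94e-08) and fell in white (−1.41, adjusted p = 4.48e-08). Its partner Fos fell in brown (−0.75, adjusted p = 0.000132) and rose in white (1.74, SE 0.105, adjusted p = 1.78e-07). Fosl1 and Junb were lower in both.

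**Figure D5:**
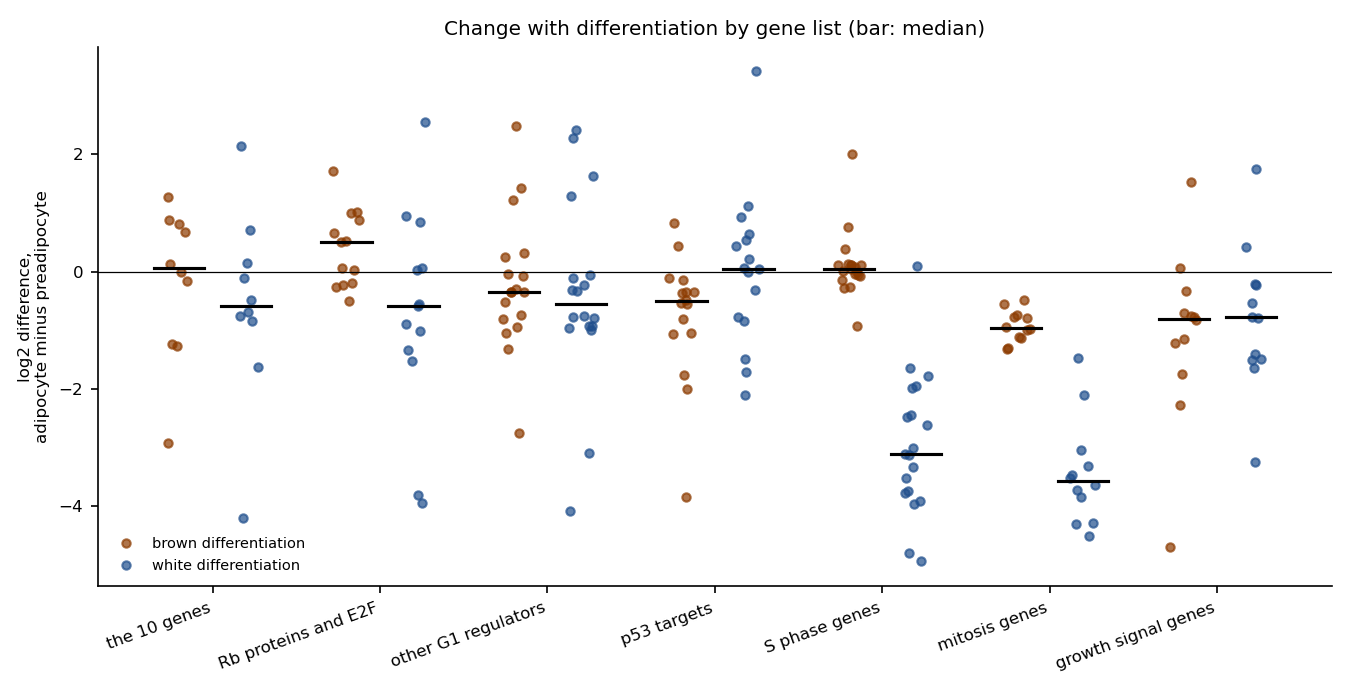
Log2 difference, adipocyte minus preadipocyte, of every tested gene of the 10 members and the 6 lists in the brown and white lines, with a bar at the median. S phase genes centre on 0.04 in brown and −3.11 in white, and mitosis genes on −0.97 and −3.58.

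The genes whose pattern over the 12 arrays was most like each member were found by the root mean square difference of centred log2 levels. The measure is not scaled to a gene's own spread, so a gene that varied little, such as Ccnd3 (SD 0.35 over the arrays), has close neighbours by it. The smallest values were those of Ccnd3 with Phf23 (0.0924) and Zfp54 (0.0985), of Cdkn1a with Iqsec1 (0.0943) and Map2k1 (0.107), and of Cdk4 with Metrn (0.0989) and Pbdc1 (0.107). Cdkn1b was nearest to Tfam (0.10) and 9130401M01Rik (0.112), and Ccne1 to Nup133 (0.119) and C230091D08Rik (0.122). Cdkn2c had Fam214a (0.129) and Dnmt3a (0.132), and Ccnd2 had Ccdc85b (0.188) and Msmo1 (0.193). The nearest to Ccne2 were Lin9 (0.157), which had 1573 in brown adipocytes and 696 in brown preadipocytes against 238 in white adipocytes and 409 in white preadipocytes, and Rbl1 (0.242). Cdk6 was nearest to Osbpl3 (0.254) and Mdm1 (0.281). Ccnd1 had the least close neighbours, Hmga2 (0.546) and Aqp1 (0.551), on the widest spread of levels.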

How the data were processed

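Total RNA was measured on 12 Affymetrix arrays, grouped by the labels into 4 groups of 3. The deposited values are linear signal intensities per probe set. Per the submitters' processing notes, the authors made them with Affymetrix Expression Console, whose version and algorithm are not stated in those notes. In the deposited intensities, the mean after trimming 2% at each end was 500.003 to 500.004 on every array, and such scaling hides a change in total RNA per cell. The number of arrays limits the precision.

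Of 45101 probe sets, 34958 had 1 symbol in the platform annotation, 932 several and 9211 none. The probe set with the highest mean log2 level stood for its gene, log2(signal + 16) was taken, and genes above the 40th percentile of the array (32.9 to 41.2) on at least 3 arrays were tested. A model of group means was fitted in R 4.3.3 with limma 3.58.1 (lmFit and eBayes, 8 residual and 1.81 prior degrees of freedom) and tested two-sided, for 5 comparisons, at a Benjamini-Hochberg adjusted p under 0.05. Python 3.11.15, numpy 2.4.6, pandas 2.3.3 and matplotlib 3.10.9 made tables and plots. The fit was tested on simulated data.

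The members and the 6 lists were chosen with earlier results of these data known. Named besides the members are, per list and line, genes among the 4 largest changes, and the 2 most alike genes per member; other genes were chosen after their values were seen. Cyr61 and Ctgf were found as Ccn1 and Ccn2; Bax, Perp and Ccnb1 were not analysed here. Single probe sets of a member were tested in a fit of all probe sets with 1 symbol above the same filter. Alternatives were other pseudocounts, scalings, filters, probe sets, eBayes settings and arrays, a replicate block and each array left out. No pairing by replicate number was seen: over 12 pairs of same-numbered arrays, deviations correlated at −0.03 to 0.03.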

Additional observations from a re-analysis of the deposited data

Results flagged for a closer look

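The change with differentiation differed between the lines, by the interaction term of the limma fit at an adjusted p under 0.05, for 9 of the 10 genes (50.9% of all genes tested). Brown change minus white change was 1.29 for Ccnd1, 0.67 for Ccne1, 2.12 for Ccne2, 0.35 for Cdk4, 1.57 for Cdk6 and 1.17 for Cdkn1b on the log2 scale. It was −1.38 for Ccnd2, −0.58 for Cdkn1a and −1.25 for Cdkn2c. Line, medium and harvest day differed together, so their parts cannot be told apart.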

How the results depend on the processing

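Of 42 called differences, 16 changed their call or direction in at least 1 alternative, and over 1161 alternatives the call was lost in 37 and the direction turned in 4. The number of members called stayed at 7 of 10 for brown differentiation, 8 for white differentiation, 9 for the difference in change and 8 for brown against white adipocytes with any array left out, and was 9 to 10 for brown against white preadipocytes. Over the other settings these counts were 7 to 8, 8 to 9, 7 to 9, 7 to 9 and 8 to 10. With the replicate number as a block they were 7, 8, 9, 8 and 10. In 4 of the 12 pairs of same-numbered arrays the first correlated best with its own number. The labels give only that number, and a weak shared effect could go unseen by this check. Of 504 refits of called differences without 1 array, 11 lost the call, all of Cdkn1a between the preadipocytes. The 504 include refits without an array of a group outside the comparison. Such an array does not enter the group means compared, so those refits say little about the difference itself. At an adjusted p under 0.01 the calls of Cdk4 and Cdkn1a for the difference in change, and of Cdkn1a between the preadipocytes, were lost.

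Directions turned in 32 cases, 28 of them for differences that were not called. Ccnd2 with white differentiation was −0.020 after quantile normalization, −0.14 after hybridization control scaling, −0.11 as the mean of probe sets, and −0.073, −0.63, −0.15 and −0.15 on single probe sets. Ccne1 with brown differentiation was 0.012 after quantile normalization, 0.0032 under equal medians, 0.10 as the mean of probe sets, 0.21 without _s_at and _x_at probe sets and on the other probe set, and between −0.095 and 0.047 with 1 array left out (0.030, 0.016 and 0.047 without brown preadipocyte replicate 1, brown preadipocyte replicate 3 and brown adipocyte replicate 1). Cdkn1a with brown differentiation was −0.086 after hybridization control scaling and −0.12 on its other probe set, Ccnd3 was 0.11 on 1438805_at, and Cdk6 was −0.20 on 1460291_at. The difference in change of Ccnd3 was 0.10 under equal medians, 0.020 after hybridization control scaling, 0.35 as the mean of probe sets, 0.059 and 0.027 without white preadipocyte replicate 3 and brown adipocyte replicate 2, and 0.81 and 0.29 on its dim probe sets. Between the adipocytes, equal medians gave −0.053 for Cdk4 and −0.094 for Cdkn2c, leaving out white adipocyte replicate 3 gave −0.064 for Cdkn2c, and Ccnd3 was 0.31 as the mean of probe sets and 1.64 on 1438805_at, which gave 0.83 between the preadipocytes. The cause was not tested. Ccnd3 passed after hybridization control scaling with brown (−0.37) and white (−0.39) differentiation, and in white also as the mean of probe sets (−0.41) and on 1438805_at (−0.70). Cdk4 between the adipocytes passed after hybridization control scaling (0.23) and on 1422439_a_at (0.21). The 4 dim probe sets of Ccnd3, Cdk6 and Cdkn1b had all group means under 200.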

Other observations

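Other regulators of the same step, chosen after their values were seen, stood far apart between the lines. The inhibitor gene Cdkn1c (p57) had a signal of 7682 ± 267 in brown adipocytes and 3306 ± 94.4 in brown preadipocytes, against 43.7 ± 10.0 in white adipocytes and 3.04 ± 0.456 in white preadipocytes (SD, n = 3). Its difference between brown and white adipocytes was 7.02 on the log2(signal + 16) scale (SE 0.106, limma adjusted p = 1.01e-10). It rose with brown differentiation by 1.21, while in white preadipocytes it lay below the filter level of 32.9 to 41.2 and in white adipocytes near it, so no size is given for the white line. Mdm2, the ubiquitin ligase of p53, had 809 ± 63.8 in brown adipocytes and 1176 ± 35.4 in brown preadipocytes, against 9662 ± 780.4 in white adipocytes and 9702 ± 457 in white preadipocytes, a difference of −3.55 between the adipocytes (SE 0.0814, adjusted p = 3.32e-10). Cdkn2a, which encodes p16 and p19Arf, had 3726 ± 679 in brown adipocytes and 5314 ± 289 in brown preadipocytes, against 861 ± 148 in white adipocytes and 1008 ± 116 in white preadipocytes, a difference of 2.09 between the adipocytes (SE 0.153, adjusted p = 1e-06).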
